A study of Mytilus galloprovincialis with 8 samples.

Results

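The response of the gill was described in the mussel Mytilus galloprovincialis after exposure to Prorocentrum lima, a dinoflagellate that produces okadaic acid (OA). All arrays whose records name gill were taken, which gave 4 of the 8 arrays of the series, and the other 4 hold digestive gland RNA. Adult mussels from a natural population were divided into an exposed and a control group, both fed the microalgae Tetraselmis suecica and Isochrysis galbana, and the exposed group was also given P. lima for 24 h. The sample records give the dose as 200 cells/ml, whereas the methods give 200 cells/L. On each 2-colour array, gill RNA pooled from 5 exposed mussels was hybridized in one channel and gill RNA pooled from 5 control mussels in the other. Each pair of pools was hybridized a second time with the dyes exchanged (dye swap), and an array and its swap were counted as 1 biological replicate, so that n = 2. Neither genotype nor sex is given for these mussels, and variation between the animals of a pool was not measured.

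OA binds and inhibits the serine/threonine protein phosphatases PP1 and PP2A, enzymes that remove phosphate groups from proteins of the cytoskeleton, the cell cycle and stress signalling. The gill of a bivalve is a ciliated epithelium that pumps water, sorts food particles and exchanges gases, and it is among the first tissues that waterborne cells and toxins reach. The digestive gland, by contrast, is where mussels are known to store most of the OA they take up.

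The probes were designed from cDNA libraries of digestive gland, and this limits which gill transcripts could be seen. Each of the 51300 probes targets 1 contig, and the library of a contig was read from its name. On that reading 17037 probes come from the normalized library of control mussels (MGC), 19188 from that of exposed mussels (MGT) and 15070 from the forward library of Suppression Subtractive Hybridization (SSH forward), a method that enriches transcripts more abundant in exposed than in control samples. The remaining 5 probes have other names. The files pair a gene with 1 probe only, the histone variant H2AZ. The other probes are therefore given by identifier and contig. For the same reason the label gill could not be checked against ciliary or haemocyte markers, and lists of stress, cytoskeleton or phosphatase genes could not be drawn up. In pooled tissue, fewer cells of a type and less RNA per cell cannot be told apart.

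Between 39.0% and 47.7% of the probes were well above background in the exposed channel of the gill arrays, and between 39.2% and 41.6% in the control channel. No spot was saturated. Turned to exposed over control, the arrays of a dye swap correlated across all probes at 0.756 in replicate 1 and at 0.573 in replicate 2, and arrays of different replicates at 0.355 to 0.483. These values carry no p, since probes of an array are not replicates. The array of replicate 2 with the exposed pool in Cy5 stood apart. Its 10 added spike-in controls had a median log2 ratio of red over green of -1.54, against -0.14 to 0.61 on the other 3 gill arrays. In replicate 2 the dye-swap arrays differed by more than 2 on the log2 scale for 53 probes, of which 47 were higher on that array, against 12 probes in replicate 1. In both replicates 0 of these probes passed the adjusted threshold used below. Only 0.0293% of all tested probes passed it, so that 0 of so few was likely.

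Over the fully detected probes the 2 control pools of gill could not be told apart from each other, whereas the 2 exposed pools differed widely. Each pool was measured with both dyes, so that the difference between the pools of a condition was obtained independently on each pair of arrays. Over the 17236 probes well above background in all 8 gill channels, these 2 measurements correlated at 0.0495 for the control pools and at 0.715 for the exposed pools. In digestive gland the same values were 0.382 and 0.315 over 25425 probes. The mean difference between the control pools was beyond 1 on the log2 scale for 6 probes and beyond 2 for 0, against 369 and 60 between the exposed pools. Control levels correlated at 0.995 between the pools, with an SD of the difference of 0.186, and exposed levels at 0.977, with an SD of 0.406. The control correlation between dyes lay between -0.133 and 0.0102 under the other normalizations and probe choices tried, and the exposed one between 0.684 and 0.785. Over these probes no difference between the control pools was measured beyond the noise of hybridization. A correlation near 0 cannot show that they are 1 sample. The records number them as separate replicates, and the methods speak of biological replicates. Of the other 1009 probes detected in all 4 control channels, 2 had control pools more than 1 apart, among them CUST_26518_PI427859148 at 7.22 and 8.87. Each ratio below was taken against the control pool on its own array. The tests hold little spread of controls. If the control pools are 1 sample, ratios against it correlate between replicates, share signs and share large changes even where exposure has no effect. Against the mean of both control pools, which was partly measured on other arrays than the exposed pool, the replicates correlated at 0.344.

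**Figure D1:**
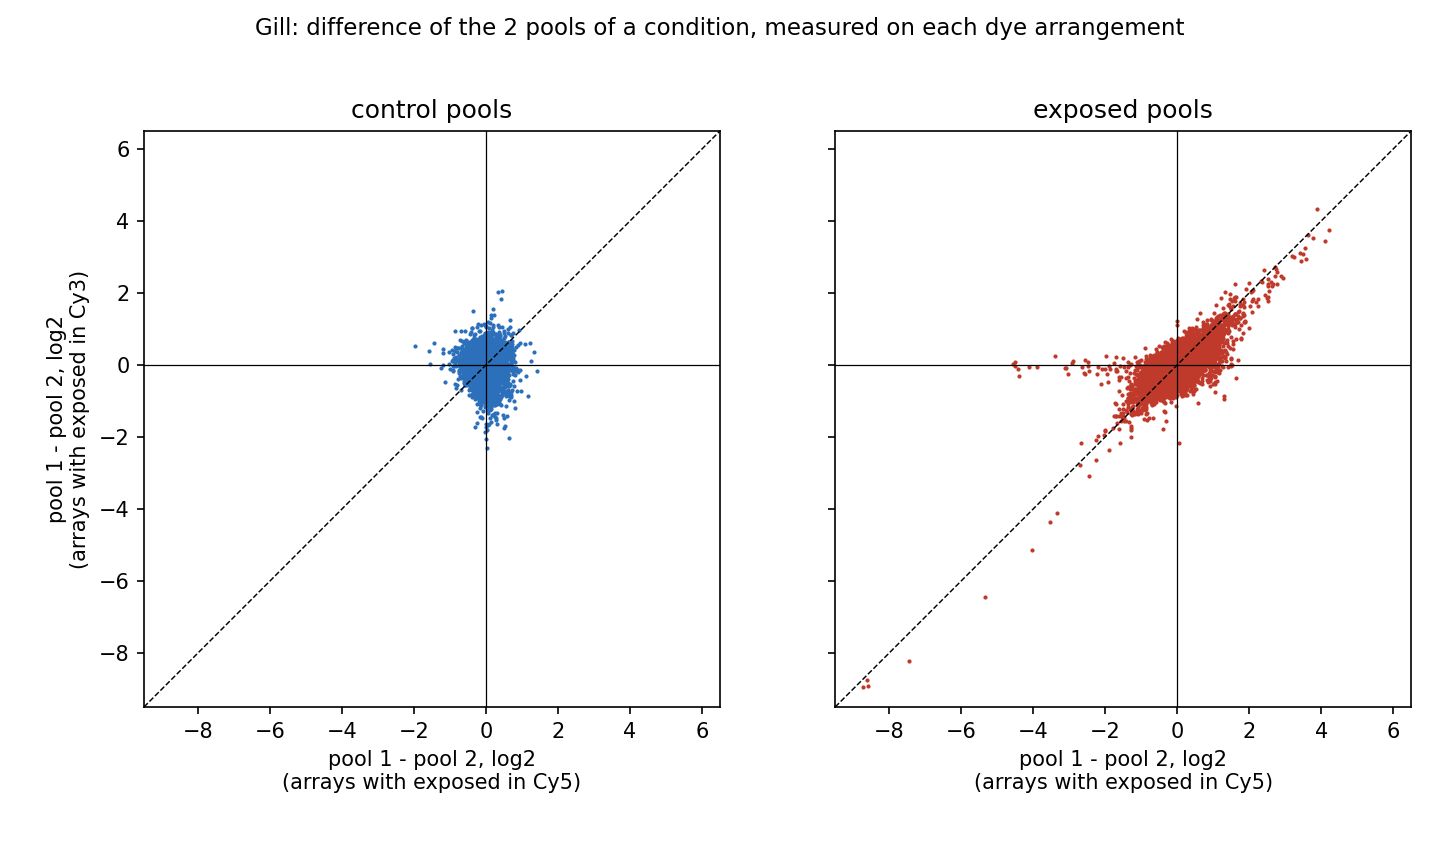
Difference between pool 1 and pool 2 of the gill on the log2 scale, measured on the arrays with the exposed sample in Cy5 (horizontal axis) and on their dye swaps (vertical axis), for control pools (left, blue) and exposed pools (right, red). Each point is 1 of 17236 probes and the dashed line marks equal values. The control points form a cloud around 0 (r = 0.0495), the exposed points follow the line (r = 0.715), and a row of exposed points lies along the horizontal axis, higher only on the array that stood apart.

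The typical change in gill was small and its size depended on the processing. The median size of the log2 ratio was 0.0607 in replicate 1 and 0.0657 in replicate 2 (0.0632 ± 0.00354, mean ± SD, n = 2). It was 0.295 without the added constant explained below, 0.164 on the authors' table of log2 ratios and 0.184 among the fully detected probes, and 46.8% of all probes were above background in no channel. Of the replicate means, 90% lay between -0.28 and 0.34, and the extremes were -5.05 and 5.27. Ratios above and below 0 were nearly balanced, with 49.6% of the probes above 0 in replicate 1 and 48.8% in replicate 2. This balance follows from the normalization, which centres each array. Measured against the spike-ins instead, the RNA signal of the exposed pool was higher than that of the control by 0.34 in replicate 1 and by 1.01 in replicate 2, which moved the median of all probes from 0.00 to 0.67. Without the array that stood apart the value of replicate 2 was 0.393 and the median of all probes 0.383, from a single orientation whose dye ratio does not cancel. All changes below are relative to the bulk of the probes.

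Larger changes were mostly seen in 1 replicate. A log2 ratio beyond 1, that is a 2-fold change, was found for 376 probes in replicate 1 and for 632 in replicate 2. It was shared in direction by 128 probes (59 above and 69 below), it was opposite in 15, and 722 probes had it in 1 replicate alone. Beyond 2, the replicates had 91 and 62 probes, of which 22 were shared (6 above and 16 below). The shared changes leaned towards lower levels with exposure as the size grew. Beyond 3, they comprised 0 probes above and 7 below 0.

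**Figure D2:**
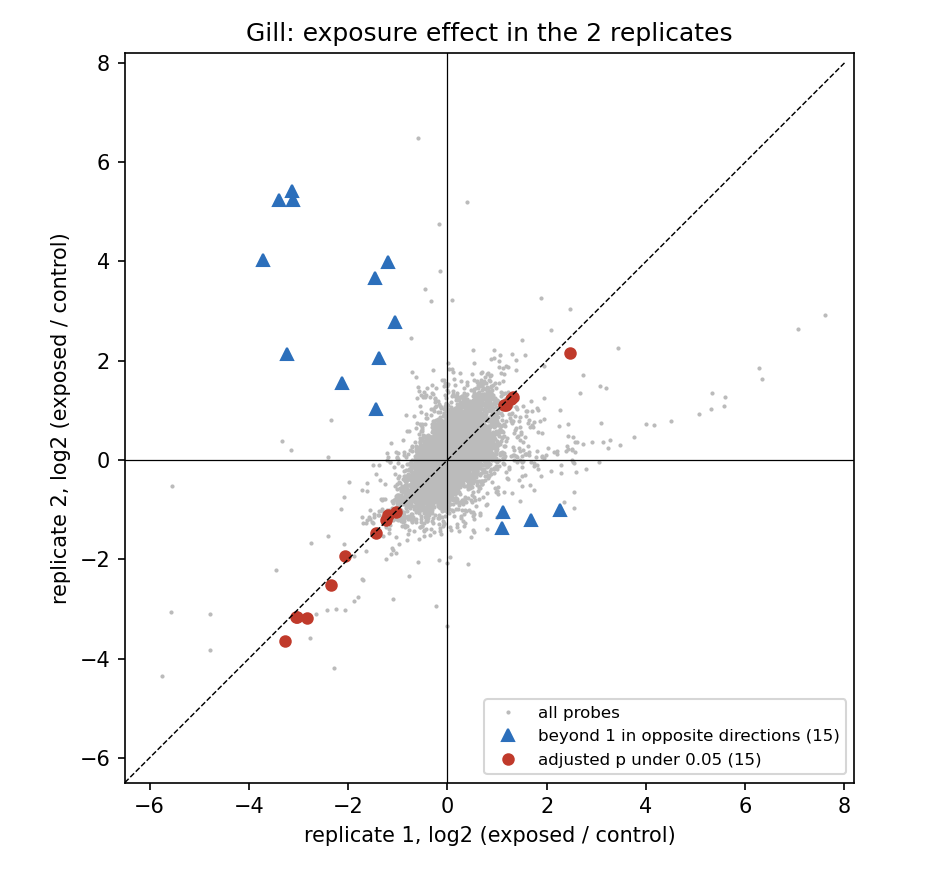
Log2 ratio of exposed over control in gill replicate 1 (horizontal axis) and replicate 2 (vertical axis), each the average of an array and its dye swap, for every probe (grey). Red circles are the 15 probes with an adjusted p under 0.05 and blue triangles the 15 probes beyond 1 in opposite directions. The grey points at right reach 7.61 in replicate 1 and less in replicate 2, whereas points below 0 on both axes lie closer to the dashed line of equal values.

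In gill 15 of 51282 probes passed the test (limma, Benjamini-Hochberg adjusted p under 0.05), which is 0.0293% of them. Of these 5 rose (0.00975%) and 10 fell (0.0195%). Their adjusted p lay between 0.0469 and 0.0477, directly below the threshold, while an unadjusted p under 0.05 was found for 7319 probes (14.3%). With the gill replicates fitted alone 0 passed (limma, 7962 at an unadjusted p under 0.05). The replicates of any one of them differed by at most 0.361 on the log2 scale. Of the 15 probes, 11 were well above background in all 8 channels.

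The largest fall among these 15 probes was that of CUST_3193_PI427859148 (contig cDNA_MGC_c3193). Its log2 ratio was -3.05 and -3.50 on the arrays of replicate 1 and -3.96 and -3.31 on those of replicate 2. The control pools had log2 intensities of 11.21 and 11.17 and the exposed pools of 7.93 and 7.54. The mean of -3.46 (standard error 0.10, limma adjusted p = 0.0469) is a 10.98-fold lower level.

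CUST_3297_PI427859148 (cDNA_MGC_c3297) fell by 3.11 (standard error 0.12), with -3.06 and -3.16 in the 2 replicates. CUST_11013_PI427859148 (cDNA_MGC_c11018) fell by 3.01 (standard error 0.10), from control levels of 11.84 and 11.98 to exposed levels of 9.01 and 8.79. CUST_21160_PI427859148 (cDNA_MGT.90_c4291) had -3.04 and -3.17, and its exposed channel was well above background on 2 of the 4 arrays. In all 4 of these probes both exposed pools lay below both control pools, which their selection by the test made likely.

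Smaller falls were measured for CUST_7166_PI427859148 (-2.34 and -2.52), CUST_2532_PI427859148 (-2.06 and -1.93), CUST_7241_PI427859148 (-1.43 and -1.47) and CUST_29436_PI427859148 (-1.25 and -1.21). The exposed channel of CUST_1252_PI427859148 and CUST_13893_PI427859148 was not well above background on any array, so that their levels were at least 2.21-fold and at least 2.02-fold lower with exposure. Of the 10 probes that fell, 8 belong to the control library and 2 to the normalized library of exposed mussels.

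The largest rise that passed the test was that of CUST_40053_PI427859148 (mgt200.forw_rep_c4789), a probe of the SSH forward library spotted 2 times on each array. Its log2 ratio was 2.33 and 2.61 on the arrays of replicate 1 and 1.87 and 2.45 on those of replicate 2. Control levels were 9.08 and 9.07 and exposed levels 11.55 and 11.23, and the mean of 2.32 (standard error 0.09, limma adjusted p = 0.0477) is a 4.97-fold rise. Its separate spots gave 2.32 and 2.34 on the same array of replicate 1.

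The other rises were smaller and alike in size. CUST_39704_PI427859148 (mgt200.forw_rep_c3991) rose by 1.29 and 1.23 in the 2 replicates, CUST_10504_PI427859148 (cDNA_MGC_rep_c10508) by 1.19 and 1.11 and CUST_9057_PI427859148 (cDNA_MGC_rep_c9058) by 1.14 and 1.10. CUST_41294_PI427859148 (mgt200.forw_rep_c7142) was not well above background in any control channel and was at least 2.45-fold higher with exposure.

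**Figure D3:**
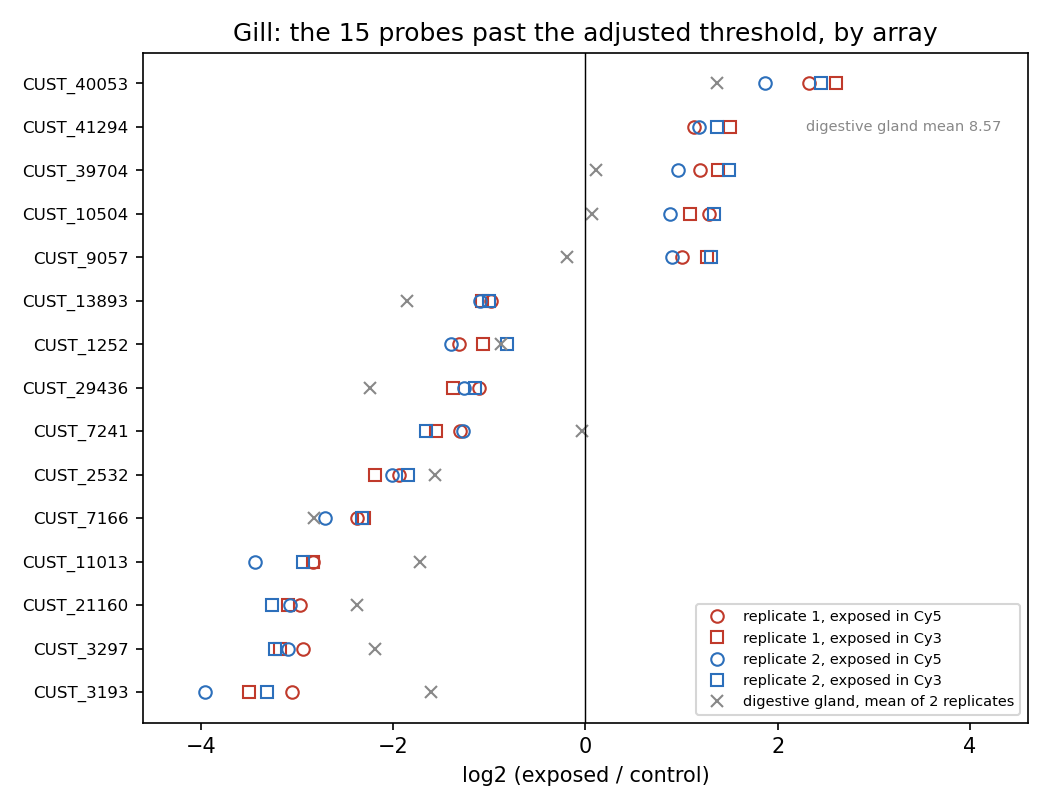
Log2 ratio of exposed over control (horizontal axis) on each of the 4 gill arrays for the 15 probes with an adjusted p under 0.05, in order of their mean. Red marks are replicate 1, blue marks replicate 2, circles the arrays with the exposed sample in Cy5 and squares their swaps, and crosses give the digestive gland mean. The digestive gland mean of one probe, 8.57, is off the axis and written out. All 4 gill marks of a probe lie on the same side of 0, from -3.96 to 2.61.

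The number of probes past the threshold depended strongly on the background correction. A constant of 50 was added to each corrected intensity before the logarithm was taken, which draws the ratios of dim spots towards 0. With a constant of 10 in place of 50, 2797 probes passed (5.45%), of which 1639 rose (3.2%) and 1158 fell (2.26%), and the 15 probes above were among them. With a constant of 50 and a fit to only the 17236 fully detected probes, 1162 passed (6.74%), with 698 that rose (4.05%) and 464 that fell (2.69%). On the authors' own table of log2 ratios 2781 passed. Under all 3 of these settings more probes rose than fell, whereas 5 rose and 10 fell among the 15, and median centring in place of loess gave 0 that rose and 8 that fell. Scaled to the spike-ins, 40507 rose and 61 fell. With the mean of the 2 control pools as the control of both replicates, 0 probes passed (limma, lowest adjusted p = 0.079), with 6390 at an unadjusted p under 0.05. That control was partly measured on other arrays than the exposed pool, and the part of this in the result was not tested.

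The 2797 probes that passed with a constant of 10 had a median size of change of 0.759 on the log2 scale, and 683 of them changed by more than 1 (440 rose and 243 fell). The direction of all 2797 was the same with a constant of 50. Of the SSH forward probes tested, 5.66% passed, and 720 of the 853 rose (84.4%). Of the MGC probes 6.09% passed, and 438 of 1038 rose (42.2%). Of the MGT probes 4.72% passed, and 481 of 906 rose (53.1%).

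Transcripts detected in 1 condition alone were mostly those of exposed gills. Of the 51300 probes, 365 were well above background in the exposed channel of all 4 arrays and in the control channel of none. The reverse held for 69 probes. Of the 2 sets 1 and 2 probes passed the test, against 0.0293% of all tested. An unadjusted p under 0.05 (limma) was found for 215 and 67, against 14.3% of all tested. The ratio had the same sign in both replicates for 354 and 69. Both sets were chosen by the signals that also enter the test. The marks rest on signal before normalization. After loess, the RNA signal of the exposed pools was higher against the spike-ins by 0.34 and 1.01. Without the array that stood apart the value of replicate 2 was 0.393. The part of such a shift in these numbers was not tested. Most lay close to the limit of detection. The fold, as a lower bound, had a median of at least 1.19 and of at least 1.36 in the 2 sets, and it was above 2 for 30 and 9 probes. The bound sets the mean of the bright condition against the dim signal. Where the dim signal was lower, the lowest signal that counted as above background on that array took its place. Dye bias cancels only where the dim signal itself was used on all 4 arrays. The bound holds for the mean of the 2 replicates, and 1 replicate alone can lie below it. With another mark of the software (positive and significant) the numbers were 177 and 80. Read from replicate 2 alone they were 2231 and 155, and from replicate 1 alone 739 and 516.

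Among probes detected only with exposure, CUST_41748_PI427859148 (mgt200.forw_c7732) had the highest bound, at least 16.7-fold for the mean of the replicates, against 3.6-fold in replicate 2 alone. Its log2 ratio was 5.95 and 6.62 on the arrays of replicate 1 and 1.93 and 1.77 on those of replicate 2, against control levels of 7.39 and 6.88. The exposed pools themselves were far apart, at 13.67 and 8.73, so that the mean of 4.07 (standard error 1.11) did not pass (limma adjusted p = 0.23).

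The next 4 probes had the same shape and are also of the SSH forward library. CUST_46138_PI427859148 was at least 10.8-fold higher (5.6 and 1.28 in the 2 replicates), CUST_39455_PI427859148 at least 10.2-fold (5.33 and 1.36), CUST_38206_PI427859148 at least 10-fold (5.57 and 1.08) and CUST_47573_PI427859148 at least 8.98-fold (5.31 and 1.02). In each of them replicate 1 carried most of the difference, and replicate 2 lay below the bound. Replicate 2 alone was 2.42, 2.56, 2.11 and 2.03-fold higher, in the order given. The adjusted p of the 4 probes lay between 0.263 and 0.32 (limma).

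The 5 probes with the highest bound among those detected only in control gills had replicates closer to each other. CUST_12580_PI427859148 (cDNA_MGC_c12589) was at least 7.33-fold lower with exposure, with -2.62 and -2.67 on the arrays of replicate 1, -3.52 and -2.68 on those of replicate 2 and control levels of 9.50 and 9.57 (limma adjusted p = 0.0554). CUST_4955_PI427859148 was at least 3.34-fold lower (-1.65 and -1.83), CUST_5207_PI427859148 at least 2.85-fold (-1.52 and -1.50) and CUST_15404_PI427859148 at least 2.63-fold (-1.42 and -1.40). The fifth was CUST_1252_PI427859148, given above. All 5 belong to the control library.

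The mean log2 ratio was beyond 2 for 47 probes, of which 6 passed the adjusted threshold. Of these 47 probes 25 had higher and 22 lower levels with exposure. The 25 were 19 SSH forward and 6 MGT probes, and the 22 were 17 MGC and 5 MGT probes. Their replicates differed in different degree. The median gap between the replicates was 3.71 for the 25 higher probes and 0.878 for the 22 lower ones, and it was above 2 for 16 and 2 of them.

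The highest ratio in gill was that of CUST_39538_PI427859148 (mgt200.forw_rep_c3764), with 7.20 and 8.03 on the arrays of replicate 1 and 2.81 and 3.04 on those of replicate 2. Both exposed pools, at 15.45 and 10.14, lay above both control pools, at 7.84 and 7.21. CUST_38935_PI427859148 (mgt200.forw_c2907) followed with 7.07 and 2.64 in the 2 replicates. The mean ratios of 5.27 and 4.85 had standard errors of 1.17 and 1.11 and did not pass (limma adjusted p = 0.171 and 0.176).

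Over the probes well above background in all 8 channels with the same sign on all 4 arrays, CUST_40053_PI427859148 had the fourth highest mean ratio and was the only one of the 5 highest to pass. CUST_30819_PI427859148 (cDNA_MGT.90_c17407) had 3.44 and 2.26 in the 2 replicates, CUST_36772_PI427859148 4.5 and 0.79, CUST_37371_PI427859148 3.20 and 1.45, and CUST_39677_PI427859148 2.73 and 1.71 (limma adjusted p of 0.0764 to 0.336).

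The lowest mean ratio was that of CUST_7248_PI427859148 (cDNA_MGC_rep_c7248), with -5.45 and -6.05 on the arrays of replicate 1 and -4.32 and -4.37 on those of replicate 2. It was abundant in both control pools (14.54 and 14.78) and far lower in both exposed pools (8.79 and 10.44), a 33.03-fold difference that missed the threshold (limma adjusted p = 0.0592). CUST_30006_PI427859148 (cDNA_MGT.90_rep_c16483) had -5.58 and -3.07 in the 2 replicates, CUST_4177_PI427859148 -2.28 and -4.18, and CUST_9845_PI427859148 -2.77 and -3.59. CUST_3193_PI427859148, given above, had the third lowest mean and was the only one of these 5 to pass.

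Some large ratios were seen mainly in 1 replicate. Of the 58 probes with a ratio above 2 in replicate 1, 41 were of the SSH forward library, and their median was 2.58 in replicate 1 and 0.371 in replicate 2. Replicate 2 had 34 such probes, of which 13 were SSH forward, with medians of 2.71 there and 0.453 in replicate 1. Probes below -2 were more often shared. The 33 of replicate 1 had a median of -2.84 there and -1.93 in replicate 2, and the 28 of replicate 2 a median of -3.0 there and -2.26 in replicate 1. Each of these sets was chosen by its values in 1 replicate, so that a smaller median size in the other was likely.

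CUST_26518_PI427859148 (cDNA_MGT.90_rep_c11979) had -0.59 and -0.60 on the arrays of replicate 1 but 6.37 and 6.61 on those of replicate 2, with exposed levels of 6.63 and 15.36. CUST_45590_PI427859148 had 0.39 and 5.21 in the 2 replicates, and CUST_28053_PI427859148 had -5.23 and -5.86 on the arrays of replicate 1 and -1.06 and 0.03 on those of replicate 2. These 3 probes were chosen after their values were seen. In each the replicates lay farther apart than the arrays of a dye swap.

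In 15 probes the 2 replicates were beyond 1 in opposite directions, higher in replicate 2 for 11 and in replicate 1 for 4. CUST_25813_PI427859148 (cDNA_MGT.90_rep_c10656) had -3.14 and 5.42, CUST_23595_PI427859148 -3.39 and 5.24 and CUST_9132_PI427859148 -3.71 and 4.03. Control levels of these 15 probes differed between the pools by at most 0.809, whereas exposed levels differed by 2.42 to 8.84. For CUST_25813_PI427859148 the exposed pools were at 7.50 and 16.34 around controls of 10.64 and 10.92, so that one exposed pool lay below and the other above both control pools. In digestive gland 14 of the 15 had ratios below 0 in both replicates, against 34.9% of all probes. These 15 probes were picked out by their values, so no test of them is given.

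How the size of the response followed the signal depended on the added constant. Probes were sorted by how many of the 8 gill channels were well above background, and those with all 8 were split into a dim, a middle and a bright class of nearly equal size at log2 intensities of 6.83 and 7.87. Intensity depends on the probe as well as on the transcript, so that these are classes of signal. A total of 24034 probes (46.8%) were above background in none of the channels, and the mean ratio of the 4 arrays had an SD across probes of 0.041, below the SD of 0.0561 of their dye effect. The SD of the mean ratio was 0.178 in the dim class, 0.325 in the middle class and 0.451 in the bright class, while that of the replicate difference was 0.101, 0.173 and 0.26. If the control is common to both replicates, the mean ratio also holds its deviation, which the replicate difference does not. The 2 SDs are therefore not compared. The median size of change was 0.0263 with no channel, 0.104 in the dim class and 0.257 in the bright class at a constant of 50, but 0.205, 0.244 and 0.28 without a constant.

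Since the control pools could not be told apart, the correlations of the replicates are given as a description only. Across probes the replicates correlated at 0.104 in the class with no channel above background, at 0.413 in that with 1 to 7 channels, and at 0.522, 0.564 and 0.507 in the dim, middle and bright classes. Their ratios had the same sign for 53.1% of the probes in the first class and for 72.4% in the bright class. Of the 15 probes that passed, 7 lay in the bright class, 4 in the middle class and 4 among those with 1 to 7 channels. The share of probes with higher levels in exposed gills was 48.7%, 50.7% and 49.7% in the dim, middle and bright classes and 55.9% with 1 to 7 channels. This evenness holds under loess, which removes a trend with intensity, and in the bright class the share was 83.7% under median centring.

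**Figure D4:**
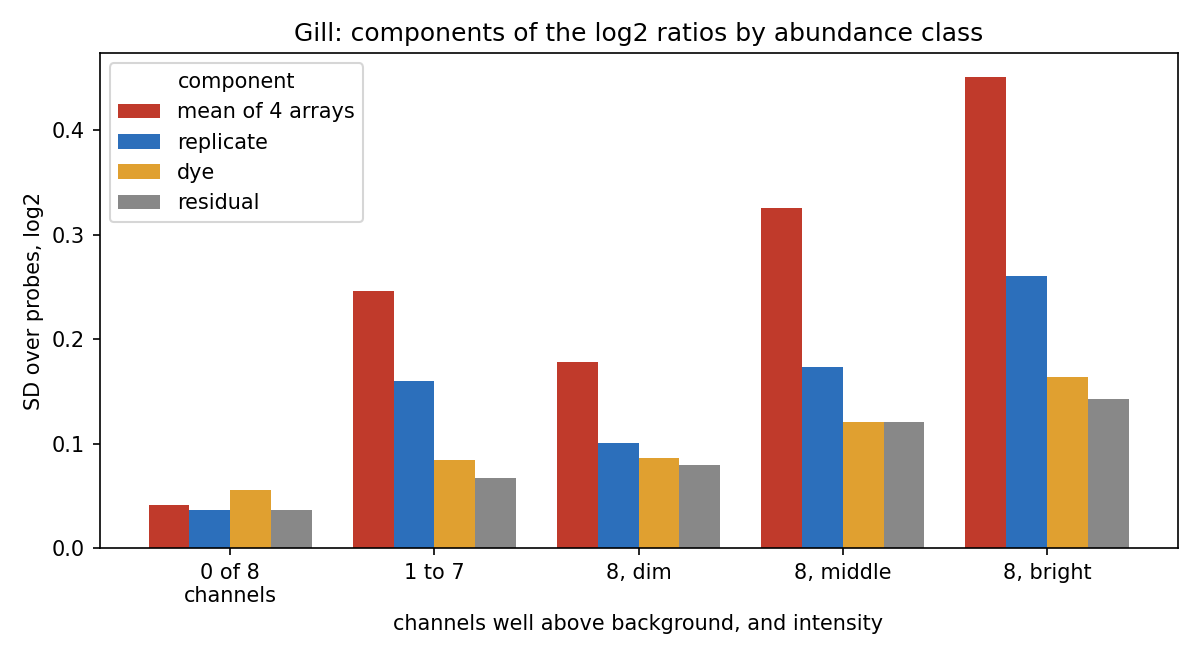
SD across probes of the components of the 4 gill log2 ratios (vertical axis) in 5 classes of signal (horizontal axis). Red bars give the mean over the 4 arrays, which holds the change with exposure and the deviation of the controls. Replicate (blue) and dye (orange) are the deviations of a replicate and of a dye orientation from that mean, and residual (grey) is what remains. The red bars rise from 0.041 to 0.451 at an added constant of 50.

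The 3 brightest probes of the gill had small mean ratios, below 0 in both replicates, whose sign changed with the scaling for 2 of them. CUST_13118_PI427859148, CUST_43939_PI427859148 and CUST_40500_PI427859148 had mean log2 ratios of -0.25, -0.27 and -0.69 and did not pass (limma adjusted p = 0.261, 0.181 and 0.158). On the arrays with the exposed sample in Cy5 alone the values were 0.62, 0.62 and 0.32, a dye difference that the mean over both orientations cancels. The mean was above 0 for the first 2 under median centring, with the scanner's processed signals and on the spike-ins.

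The direction of change followed the library of the probe. Of the SSH forward probes 56.3% had higher levels in exposed gills, against 47.7% of the MGT and 44.3% of the MGC probes and 49.1% of all probes. Among those well above background in all 8 channels the shares were 62.1%, 46.0% and 45.1%. Over all probes the shares were 57.3%, 46.9% and 45.8% in replicate 1 and 53.9%, 48.2% and 44.9% in replicate 2. Among fully detected probes SSH forward was also highest in both replicates (63.0% and 58.0%), whereas MGT lay below MGC in replicate 1 (43.5% and 45.7%) and above it in replicate 2 (47.2% and 45.7%). Beyond 1 in both replicates, SSH forward had 37 higher and 4 lower probes, MGT 7 and 9, and MGC 15 and 56. Of the probes detected only with exposure, 172 were SSH forward, 114 MGT and 79 MGC, and of those detected only in controls 1, 9 and 59. The libraries were made from exposed and control mussels of the same study, although of another tissue, so that these directions are not independent evidence.

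**Figure D5:**
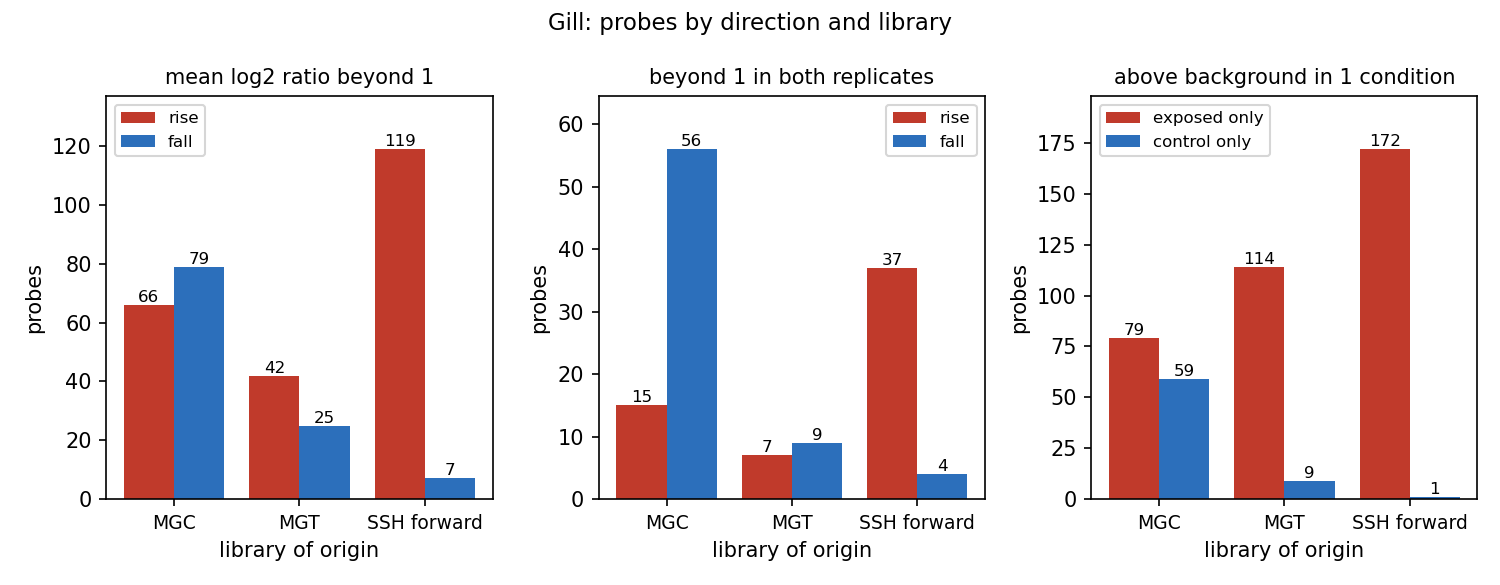
Number of gill probes (vertical axes) by library of origin (horizontal axes): mean log2 ratio beyond 1 (left), ratio beyond 1 in both replicates (middle), and detection in 1 condition alone (right). Red bars are higher or detected only with exposure, blue bars lower or detected only in controls. SSH forward probes are 119 higher against 7 lower at left, whereas MGC probes are 66 against 79 at left and 15 against 56 in the middle.

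The change with exposure differed between gill and digestive gland for 4979 of 51210 probes (9.72%, limma contrast with adjusted p under 0.05). Of all probes, 46.8% were above background in no gill channel, and the added constant draws the ratios of such dim spots towards 0. With a fit to only the probes well above background in all 8 gill channels, 1918 of 17188 differed. Of these 1918 probes, 1508 were among the 4979. The part of undetected gill signal in the 4979 was not tested. The larger change was that of gill for 754 of the 4979. Of those 754 probes, 362 had higher and 392 lower levels in exposed gills, 610 had the opposite sign in digestive gland, and 75 changed by more than 1 in gill. Of the 15 gill probes that passed, 11 differed between the tissues, 8 with the larger change in gill. The contrast reuses the gill estimate and spread by which the 15 were chosen, so these counts are not independent of that choice.

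For 4 of these probes the log2 ratio in digestive gland stayed within 0.20 of 0. CUST_7241_PI427859148 fell by 1.45 in gill and had -0.02 and -0.04 in the digestive gland replicates (difference -1.42, standard error 0.06, limma adjusted p = 0.00339). CUST_9057_PI427859148 rose by 1.12 in gill and had -0.20 and -0.20 (difference 1.32, limma adjusted p = 0.00383). CUST_39704_PI427859148 and CUST_10504_PI427859148 rose by 1.26 and 1.15 in gill and had at most 0.16 in digestive gland (differences 1.15 and 1.08, limma adjusted p = 0.00685 and 0.0062). CUST_3193_PI427859148 fell in both tissues, by 1.85 more in gill (limma adjusted p = 0.0103).

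The opposite order was found for CUST_41294_PI427859148, which rose by 1.30 in gill and had 8.62 and 8.53 in digestive gland, a difference of -7.28 (standard error 0.07, limma adjusted p = 0.000478). Of the 59 probes beyond 1 above 0 in both gill replicates, 27 were also beyond 1 in that direction in both digestive gland replicates, and the difference between the tissues passed for 25. Of the 69 beyond 1 below 0, 35 were so in digestive gland and the difference passed for 34. The difference passed for 9.72% of all tested probes. The 59 and the 69 probes were chosen by gill ratios that also enter the contrast, so these counts are not independent of that choice. The share of all probes beyond 1 in both digestive gland replicates is not given here. These contrasts rest on 2 replicates per tissue.

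The probe named H2AZ, a histone variant of active and poised chromatin, had 0.99 and 0.94 on the arrays of gill replicate 1 and -0.43 and -0.70 on those of replicate 2. Its mean of 0.20 (standard error 0.38) did not pass (limma adjusted p = 0.939). In digestive gland it had -1.17 and -1.11, and a difference between the tissues was not shown (limma adjusted p = 0.238).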

How the data were processed

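Gene expression was measured on 8 Agilent 2-colour arrays, and the 4 gill arrays are described. The authors deposited the scanner output of Agilent Feature Extraction 10.7.3.1 for each array, with the median intensity and median local background of each spot in both channels and its quality marks. The series also holds log2 ratios that the authors deposited, red over green, whose processing is not given in the sources used here and which served as an alternative. They correlated at 0.927 to 0.973 with the log2 ratios computed here.

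Median intensities were background-corrected with normexp (offset 50) and normalized by loess within each array with limma 3.58.1 in R 4.3.3, with control spots at weight 0. Outlier spots (0.0438% to 0.0714% in gill) were removed, repeated spots were averaged per probe, and the mean of an array and its dye swap, both expressed as exposed over control, gave 1 value per replicate. The 4 averages of both tissues entered 1 limma fit with a mean per tissue and 2 residual degrees of freedom. The estimates of this fit were checked on simulated data, in which the replicates shared no control. Digestive gland served only for the spread and the contrast. The fit thus assumes 1 spread per probe for both tissues. The exposed pools, however, differed with an SD of 0.406 in gill and 0.192 in digestive gland, over the fully detected probes of each. Levels of single pools were taken after a further Aquantile step. Where nothing states that pools came from separate tanks, p-values measure only the spread between these pools.

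Same-numbered replicates of gill and digestive gland are not stated to come from the same animals, and no pairing was assumed. The number of arrays limits the precision, and 2 replicates allow no exact test under 0.05. Named probes were all that passed, the 5 on each side detected in 1 condition with the highest bound, the 5 highest and 5 lowest mean ratios of fully detected probes of 1 sign on all 4 arrays, and the 3 brightest. Other probes were named after their values were seen, as examples of differences between replicates or as H2AZ. The probes, lists and classes were chosen with earlier results of these data known. Alternatives changed the background correction, normalization, filters, use of spots and swaps, fit and threshold, and left out each replicate. Those with the spike-ins, with the mean of the control pools, without 1 array, for the pool correlations, for sizes by class and for the spike-ins without 1 array were chosen after seeing the data.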

Additional observations from a re-analysis of the deposited data

Results flagged for a closer look

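The 4 gill arrays were searched for 1 value far from the other 3 in 38 measures, 35 of them the ratios of named probes, and chance gives about 1 in 20. This was found for 1 probe. CUST_12580_PI427859148 had log2 ratios of -2.62, -2.67 and -2.68 on 3 arrays and -3.52 on the array of replicate 2 with the exposed pool in Cy5, a gap of 0.935 of the whole range. That array also stood apart in its spike-ins, and their part in the value was not tested.

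The change with exposure differed between gill and digestive gland for 13 of the 35 named probes (limma contrast, adjusted p under 0.05), against 9.72% of all tested probes. Most of the 35 were chosen by gill ratios that also enter the contrast, so this number is not independent of that choice. The difference, gill minus digestive gland on the log2 scale, was above 0 for 7 of the 13. It was 1.08 for CUST_10504_PI427859148, 0.82 for CUST_13893_PI427859148, 1.02 for CUST_29436_PI427859148, 1.15 for CUST_39704_PI427859148, 0.95 for CUST_40053_PI427859148, 1.32 for CUST_9057_PI427859148 and 1.56 for CUST_5207_PI427859148. In CUST_13893_PI427859148, CUST_29436_PI427859148 and CUST_5207_PI427859148 levels were lower with exposure in both tissues and less so in gill. The difference was below 0 for the other 6, at -1.30 for CUST_11013_PI427859148, -0.43 for CUST_2532_PI427859148, -1.85 for CUST_3193_PI427859148, -7.28 for CUST_41294_PI427859148, -1.42 for CUST_7241_PI427859148 and -1.04 for CUST_15404_PI427859148.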

How the results depend on the processing

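Of the 15 probes that passed in gill, none changed direction under any alternative, but the threshold was lost in 132 of 356 values. Instead of 15, the number that passed was 1014 at a normexp offset of 0, 2797 at an offset of 10, 605 without background subtraction, 2569 with the scanner's processed signals, 2781 on the authors' table, 8 under median centring and 1162 among fully detected probes. It was 44 with 1 spot per probe, 257 with a prior variance that follows intensity and 1261 at an adjusted p under 0.1. With arrays entered separately it was 4074 with the dye-swap pair as a random block and 1168 with a dye effect, which count an array and its swap as separate. On the arrays with the exposed sample in Cy5 alone it was 669, and in Cy3 alone 1. The same-numbered replicates of gill and digestive gland deviated together at a correlation of 0.162 across 51210 probes, and the records do not state that they share animals. With the replicate number as a block, no probe passed (0 by limma, 8403 at an unadjusted p under 0.05), and gill alone gave 0 (7962). Leaving out 1 replicate gave 0 to 30, namely 0 without gill replicate 1 (6112) or either digestive gland replicate (7962 each), and 30 without gill replicate 2. Among alternatives chosen after seeing the data, the spike-ins gave 40568, the mean of the control pools 0 (6390) and leaving out the array of replicate 2 with the exposed pool in Cy5 30. The estimated prior had 2.03 degrees of freedom at an offset of 50, 6.62 at 10 and 5.6 at 0.

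The difference between the tissues, 4979 probes, moved by over 1.5 times to 2360 at an offset of 0, 1402 under median centring, 1918 among fully detected probes, 11025 when swapped arrays formed a random block, 2727 on the spike-ins and 829 to 1846 with a replicate left out. It was 4696 with the replicate block. The median size of change, 0.0632, was 0.295 at an offset of 0, 0.164 at 10 and on the authors' table, 0.0902 without background subtraction, 0.273 with processed signals, 0.0908 under median centring, 0.184 among fully detected probes, 0.0896 and 0.0923 on 1 dye orientation, 0.67 on the spike-ins, 0.0733 against the mean of the controls and 0.0772 without the array that stood apart. Detection in 1 condition, 434 probes, became 257 with the positive and significant mark, 1696 when 3 of 4 channels sufficed, and 1255 to 2386 with a replicate left out. Directions turned for the 3 brightest probes. CUST_13118_PI427859148 and CUST_43939_PI427859148 had 0.11 and 0.11 with processed signals, 0.09 and 0.08 under median centring, 0.62 and 0.62 with the exposed sample in Cy5 and 0.42 and 0.41 on the spike-ins, and CUST_40500_PI427859148 had 0.32 with the exposed sample in Cy5. Unless a construction is named, the cause was not tested. Dim signal limits what can be read for the 46.8% of probes with no channel above background.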
